A study of Mus musculus with 12 samples.

Results

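The genes compared here present antigens at the cell surface through MHC class I, MHC class II and CD1. They were the 20 rows of the deposited table whose symbol began with H2-, the mouse name for the major histocompatibility complex, plus 11 named genes: B2m, Tap1, Tap2, Tapbp, Psmb8, Psmb9, Psmb10 and Nlrc5 of the class I route, Cd74 and Ciita of the class II route, and Cd1d1. That gave 31 of 12284 named genes. By route, 24 belonged to class I, 5 to class II and 1 to CD1, while H2-Ke6 lies in the same region and encodes a steroid dehydrogenase. Polyadenylated liver RNA was sequenced in 6 WT and 6 DKO libraries, and the values are log2 CPM, the log2 of read counts scaled to library size. Every mouse of both groups carried floxed alleles of Acly and of Acss2, which encode enzymes that make acetyl-CoA from citrate and from acetate. At 6 to 8 weeks of age the DKO group received an adeno-associated virus of serotype AAV8 with Cre behind the hepatocyte-directed TBG promoter, and the WT group received the same vector with GFP. Both groups ate a Western diet (Teklad TD.88137) from 1 week after the injection for 6 weeks before the liver was taken. The vector directs deletion to hepatocytes, so the other cells of the liver are not its target. The labels used here name neither strain nor sex.

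Class I molecules are carried by nearly all nucleated cells and show peptides of the cell's own proteins to CD8 T cells. The proteasome cuts these peptides, the TAP transporter carries them into the endoplasmic reticulum, and a heavy chain binds them together with the light chain B2m. Class II molecules are made mainly by dendritic cells, B cells and macrophages and show peptides of engulfed proteins to CD4 T cells, while CD1d shows lipids to natural killer T cells, which are abundant in mouse liver. The transactivator Nlrc5 acts on class I genes and its relative Ciita on class II genes. Many class I and class II genes differ in sequence between mouse strains.

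Acly stood at 17.6% and Acss2 at 22% of WT in DKO (limma adjusted p = 0.0165 and 0.00571), and 5 and 6 of the 6 DKO libraries lay below the lowest WT library. The defining hepatocyte marker Alb ranged from 15.14 to 15.94 log2 CPM over the 12 libraries, as the tissue label has it. Over all genes, 214 (1.74%) passed limma's test at an adjusted p below 0.05, 76 higher (0.619%) and 138 lower (1.12%) in DKO. WT and DKO libraries did not overlap for 266 genes (2.17%), of which 97 (0.79%) were higher and 169 (1.38%) lower in DKO. The reads behind each library are unknown, and the labels do not tie each library to a separate mouse, so p-values measure the spread between libraries.

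Of the 31 antigen presentation genes, 2 passed, against 1.74% of all genes. H2-Q1, a non-classical class I heavy chain, rose 2.58-fold, and Cd1d1, the lipid-presenting molecule, fell to 56.8% of WT. The 5 class II genes lay 0.72 to 1.04 log2 units higher in DKO without passing, and 0.44 to 0.77 higher without the library DKO 4. The classical class I heavy chains H2-K1 and H2-D1 and the light chain B2m differed by 0.02 or less on the log2 scale. The median log2 fold change of the 31 genes was 0.04, with 21 higher and 10 lower in DKO, against a median of 0.0041 over all genes. Their values are shown side by side in the plot of fold changes.

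**Figure D1:**
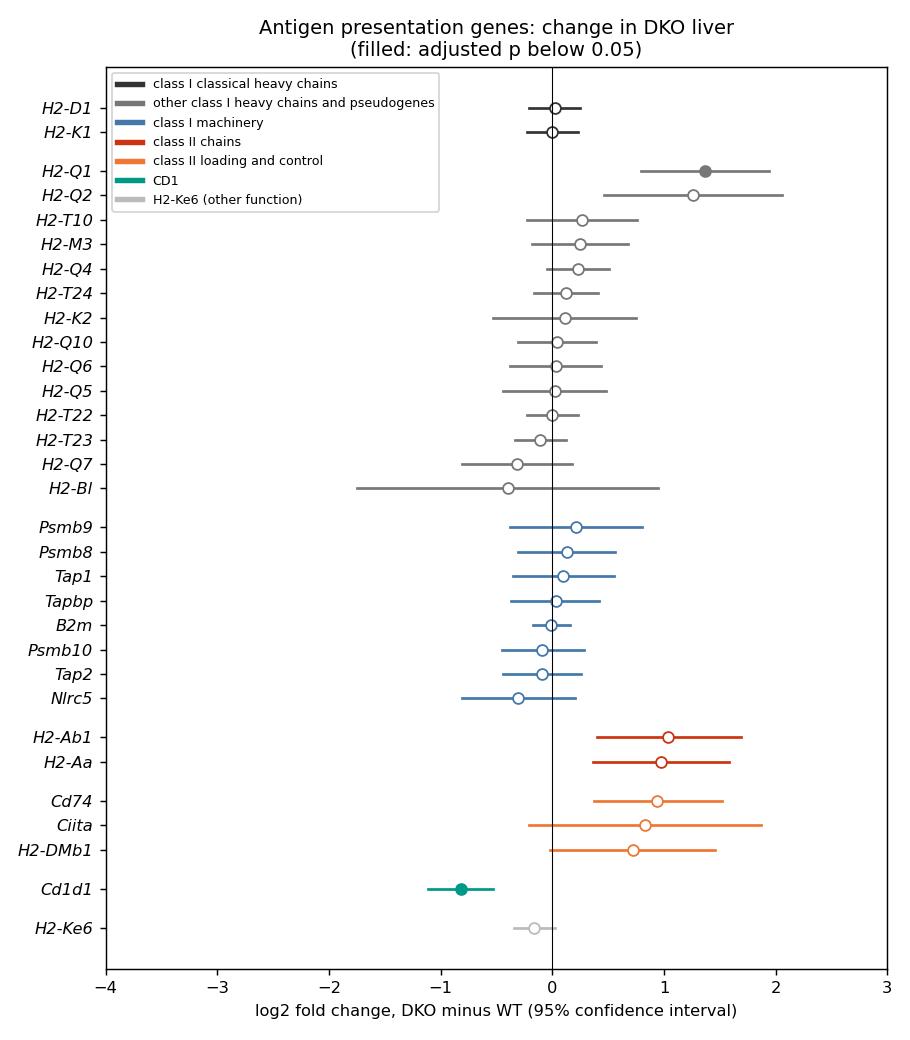
Log2 fold change (DKO minus WT) of the 31 genes with 95% confidence intervals from limma, grouped and coloured by role, with filled points where the adjusted p was below 0.05. H2-Q1 (1.37) and Cd1d1 (-0.82) are filled, the 5 class II genes lie between 0.72 and 1.04, and 22 of the 24 class I genes lie between -0.40 and 0.27.

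To show the control DNA of class II and class I genes side by side, the 200 bases before the start of H2-Aa and H2-DMb1 (class II) and of H2-K1 (class I) are given from RefSeq on build GRCm38.p6, 5′ to 3′ on the strand of the gene. H2-Aa lies at chr17:34287824-34288023 on the minus strand, H2-DMb1 at chr17:34152991-34153190 on the plus strand and H2-K1 at chr17:34000348-34000547 on the minus strand. Capitals mark matches, on either strand, to 5 motifs of textbook MHC promoters: the Y box core ATTGG, the X2 box core TGACG, the X1 box core ACNGATG, the kappa B core GGGGATTCC and the interferon element core TTTCNNTTC.
H2-Aa: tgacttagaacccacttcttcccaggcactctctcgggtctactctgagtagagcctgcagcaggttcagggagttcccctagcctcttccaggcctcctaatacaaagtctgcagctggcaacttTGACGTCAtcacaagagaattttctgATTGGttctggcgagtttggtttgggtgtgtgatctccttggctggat
H2-DMb1: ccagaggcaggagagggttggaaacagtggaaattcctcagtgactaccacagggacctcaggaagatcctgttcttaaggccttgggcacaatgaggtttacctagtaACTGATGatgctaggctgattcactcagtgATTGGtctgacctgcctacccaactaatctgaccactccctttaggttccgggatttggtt
H2-K1: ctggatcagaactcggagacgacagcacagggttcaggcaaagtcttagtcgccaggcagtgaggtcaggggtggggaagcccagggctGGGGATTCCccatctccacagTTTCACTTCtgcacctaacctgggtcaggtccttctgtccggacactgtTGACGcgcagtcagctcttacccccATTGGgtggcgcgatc
In H2-Aa the X2 core matched on both strands, and these 2 matches overlap, while no other matches overlap in these windows. H2-K1 held the kappa B and interferon cores upstream of its X2 and Y cores, and H2-DMb1 held the X1 core upstream of its Y core. Of 31 members, 19 had a RefSeq promoter, and H2-Ab1, H2-Q1, Cd1d1, Ciita and Cd74 are not among those shown. The kappa B core lay in 4 of 10 class I heavy chain promoters and 0 of 2 class II promoters, against 0.157% of 32505 promoter windows of this length, and the interferon element core in 7 of 10 and 0 of 2, against 5.02%. The Y core lay in 9 of 10 and 2 of 2 (29.3% of all windows), the X2 core in 6 of 10 and 1 of 2 (15.7%) and the X1 core in 5 of 10 and 1 of 2 (6.53%). Some of these motifs were shortened to cores after first matches were seen. The heavy chains are also related, with coding identity of 68.2% (H2-T22 and H2-M3) to 95.4% (H2-Q6 and H2-Q7) in pairs. Their promoters may therefore not count as independent, and the shares of all windows are given for scale and test nothing. These matches describe letters in a window and do not show that a factor binds.

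The classical class I genes and the class I machinery did not separate the groups. H2-K1, a classical heavy chain, measured 10.5, 10.11, 10.19, 10.15, 10.26 and 9.95 log2 CPM in WT 1 to WT 6 and 10.27, 10.12, 10.11, 10.52, 10.12 and 10.01 in DKO 1 to DKO 6. The groups overlapped almost fully, with WT 1 and DKO 4 the highest of each. Its log2 fold change was -0.0018 (95% confidence interval -0.23 to 0.23, limma adjusted p = 0.998). H2-D1, the other classical heavy chain, measured 9.24, 8.91, 8.91, 8.95, 9.03 and 8.77 in WT and 9.03, 9.04, 8.76, 9.36, 9.01 and 8.76 in DKO. The same libraries, WT 1 and DKO 4, were the highest, and the log2 fold change was 0.02 (-0.21 to 0.25, adjusted p = 0.947).

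B2m, the light chain of class I and CD1d molecules, measured 10.19, 9.98, 9.96, 9.99, 10.05 and 10.2 log2 CPM in WT and 10.15, 10.12, 10.02, 10.09, 9.86 and 10.11 in DKO. It varied little within either group (SD 0.11 and 0.10, n = 6 each), and its level in DKO was 99.6% of WT (95% confidence interval 88.7% to 112%, limma adjusted p = 0.984). Nlrc5 measured 3.82, 3.19, 2.99, 3.63, 3.95 and 3.14 in WT and 2.48, 3.16, 3.56, 3.80, 3.17 and 2.71 in DKO. The groups overlapped, DKO 1 was the lowest library, and the log2 fold change was -0.31 (-0.81 to 0.20, adjusted p = 0.563). Tap1, a subunit of the peptide transporter, measured 4.59, 4.88, 4.89, 5.5, 4.65 and 4.48 in WT and 4.52, 4.73, 4.84, 5.77, 5.08 and 4.68 in DKO, with WT 4 and DKO 4 the highest of each group. The log2 fold change was 0.10 for Tap1 (-0.35 to 0.55, adjusted p = 0.859), -0.09 for Tap2, the other subunit (-0.44 to 0.26), and 0.03 for Tapbp, tapasin, which links TAP to the heavy chain (-0.37 to 0.42).

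Psmb8, Psmb9 and Psmb10 are the subunits that replace the constitutive catalytic subunits in the immunoproteasome. Psmb8 measured 3.73, 3.76, 3.52, 3.97, 3.92 and 4.03 log2 CPM in WT and 3.91, 3.96, 3.48, 4.78, 4.19 and 3.36 in DKO. DKO 4 was again the highest library, DKO 6 the lowest, and the log2 fold change was 0.13 (95% confidence interval -0.31 to 0.56, limma adjusted p = 0.815). Psmb9 and Psmb10 were likewise highest in DKO 4, at 5.05 and 4.99 log2 CPM, with fold changes of 0.21 and -0.09 on the log2 scale. Of the 8 machinery genes, 0 passed limma's test, and 0 had a p below 0.05 without adjustment by limma or by the exact permutation test. The intervals of B2m, H2-K1 and H2-D1 all lie within 0.25 of 0 on the log2 scale, while those of Nlrc5, Psmb8, Psmb9 and Tap1 reach beyond 0.50 in 1 direction.

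Of the 14 other class I genes, H2-Q1 rose and 13 did not pass (7.14% called, against 1.74% of all genes). H2-Q1 belongs to the Q group of non-classical heavy chains, and measured 3.38, 2.57, 3.31, 3.31, 2.89 and 2.03 log2 CPM in WT and 4.66, 4.74, 4.79, 4.06, 3.84 and 3.59 in DKO. Every DKO library lay above every WT library, and DKO 1, DKO 2 and DKO 3 were the highest. The log2 fold change was 1.37 (standard error 0.27, 2.58-fold, 95% confidence interval 1.73 to 3.84, limma adjusted p = 0.0212, exact permutation p = 0.00216). The exact p is the smallest that divisions of 12 libraries into 6 and 6 allow. The call ended without WT 2, WT 5, DKO 1 or DKO 3, where the adjusted p was 0.0554, 0.0524, 0.0505 and 0.0565, and held without each of the other 8 libraries.

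H2-Q2, which lies beside H2-Q1 in the Q group, measured 1.08, -0.02, -1.23, 0.22, 0.44 and -0.38 log2 CPM in WT and 1.73, 0.33, 1.41, 1.73, 1.47 and 1.02 in DKO. All DKO libraries exceeded the WT mean of 0.02 and 4 exceeded the highest WT library, WT 1. Its log2 fold change was 1.26 (standard error 0.37, limma adjusted p = 0.0985). The limma adjusted p was 0.0441 without WT 1 and 0.0424 with array weights. It was 0.0691 to 0.185 without any other single library, and 0.168 with quantile normalization. With log2(CPM + 1) the log2 fold change was 0.74 (limma adjusted p = 0.0851). H2-Q4, H2-Q6, H2-Q7 and H2-Q10, of the same group, had log2 fold changes of 0.23, 0.03, -0.32 and 0.04. H2-Q10 encodes a class I protein secreted by the liver and ranged from 10.13 to 11.07 log2 CPM in WT and from 10.27 to 11.10 in DKO, so the groups overlapped.

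The remaining class I genes did not pass either. H2-T22, H2-T23, H2-T24 and H2-M3, non-classical heavy chains, had log2 fold changes of 0.00095, -0.11, 0.12 and 0.25. H2-T23 encodes Qa-1, which presents peptides to receptors of natural killer cells, and H2-M3 presents peptides that start with formyl-methionine. RefSeq calls the other 4, H2-K2, H2-Bl, H2-Q5 and H2-T10, transcribed pseudogenes, and their log2 fold changes were 0.11, -0.40, 0.02 and 0.27. H2-Bl was the most variable of these, from 0.06 to 2.3 log2 CPM in WT and from -1.34 to 2.3 in DKO. Without H2-Q1 and H2-Q2, the median log2 fold change of the other 22 class I genes was 0.02, and 0 of them had a p below 0.05 without adjustment by limma or by the exact permutation test.

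Reads of class I heavy chains can be shared, which bears on every single heavy chain named here. In the GENCODE M21 transcripts (build GRCm38, another build than the GRCm39 of the submitters' processing notes), 24.1% of the 31-base words of H2-Q1 also occurred in another gene, most of them in H2-Q2 (15.9%). For H2-Q2 the share was 32.8%, with 22% in H2-Q1. H2-T22 (67.4%), H2-T10 (64.2%), H2-Q5 (57.8%), H2-Q4 (53.0%) and H2-Q6 (51.8%) shared most, as the plot of shared sequence shows. The coding sequences of H2-Q1 and H2-Q2 were 85.9% identical over 1080 aligned bases, and those of H2-Q1 and H2-K1 86.5% over 1077. The 60-base coding window where H2-Q1 and H2-Q2 differ most, at 19 bases, is shown because it holds words that tell them apart, from coding base 250 to 309 of each gene, counted from the A of the start codon. Capitals mark the bases that differ.
H2-Q1: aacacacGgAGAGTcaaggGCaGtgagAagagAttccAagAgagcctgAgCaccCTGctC
H2-Q2: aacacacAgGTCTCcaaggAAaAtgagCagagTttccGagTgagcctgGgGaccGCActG
The most different window of H2-Q1 and H2-K1 differs at 18 bases, from coding base 335 to 394 of each, in the same notation.
H2-Q1: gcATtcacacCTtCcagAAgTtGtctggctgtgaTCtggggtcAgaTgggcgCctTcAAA
H2-K1: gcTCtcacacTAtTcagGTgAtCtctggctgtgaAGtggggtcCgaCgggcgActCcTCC

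**Figure D2:**
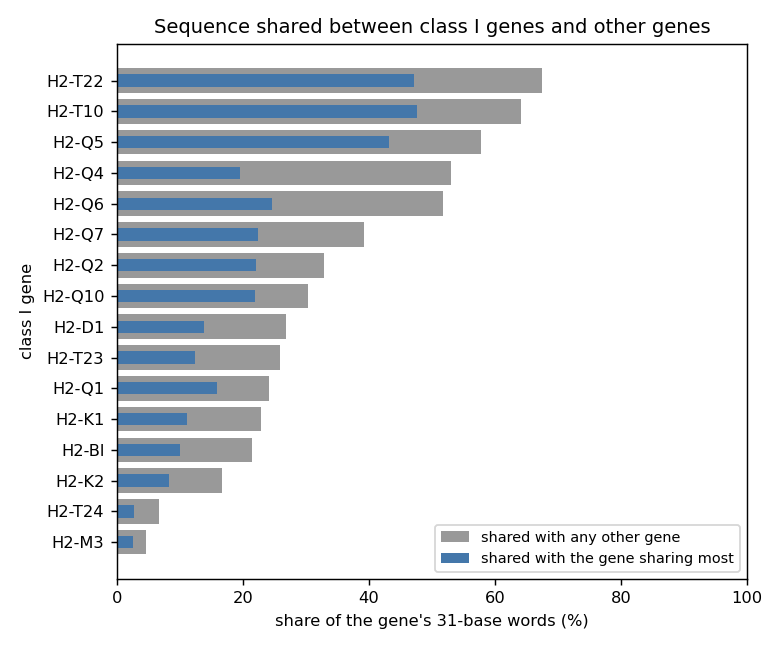
Share of the distinct 31-base words of each class I heavy chain gene (GENCODE M21) that also occur in transcripts of any other gene (grey) and of the gene sharing most (blue). H2-T22 shares 67.4% and H2-M3 4.62%, with H2-Q1 at 24.1%.

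Class II genes had higher values in DKO, and none of the 5 passed limma's test over all genes in the fit without a covariate. The 5 are a part of the route. Of 6 listed class II chains 2 were measured, and of 7 listed genes of class II loading and control 3 were. H2-Eb1, another class II chain, was not measured. H2-Ab1, the beta chain of the I-A molecule, measured 4.63, 4.36, 3.99, 4.40, 3.97 and 3.60 log2 CPM in WT and 4.94, 5.40, 4.5, 6.56, 5.30 and 4.52 in DKO. Only DKO 3 and DKO 6 lay within the range of WT, and DKO 4 stood highest. The log2 fold change was 1.04 (standard error 0.30, 2.06-fold, 95% confidence interval 1.32 to 3.22, limma adjusted p = 0.0928, exact permutation p = 0.00866). H2-Aa, the alpha chain of I-A, measured 4.68, 4.32, 4.15, 4.66, 4.09 and 3.88 in WT and 5.06, 5.54, 4.68, 6.49, 5.38 and 4.41 in DKO. DKO 6 lay within the WT range, DKO 3 at its upper edge, and DKO 4 was again the highest, with a log2 fold change of 0.97 (standard error 0.28, adjusted p = 0.0969, exact permutation p = 0.00866).

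Cd74, the invariant chain that guides class II molecules to endosomes, measured 6.19, 6.19, 5.86, 6.17, 5.70 and 5.67 log2 CPM in WT and 6.73, 7.13, 6.28, 8.11, 7.08 and 6.11 in DKO. DKO 6 overlapped WT, and the log2 fold change was 0.94 (standard error 0.27, 1.92-fold, limma adjusted p = 0.0902, exact permutation p = 0.00866). H2-DMb1, a chain of the DM molecule that loads peptides onto class II, ranged from 0.94 to 1.81 in WT and from 1.21 to 3.49 in DKO, with a log2 fold change of 0.72 (standard error 0.35, adjusted p = 0.321). Of its 31-base words, 31.4% also occur in H2-DMb2. Ciita measured 0.33, 0.49, 0.23, 1.15, -0.48 and -0.18 in WT and 1.62, 0.80, -0.62, 2.69, 1.76 and 0.28 in DKO. DKO 3 was its lowest library of all and DKO 4 its highest, and the log2 fold change was 0.83 (standard error 0.48, adjusted p = 0.418).

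**Figure D3:**
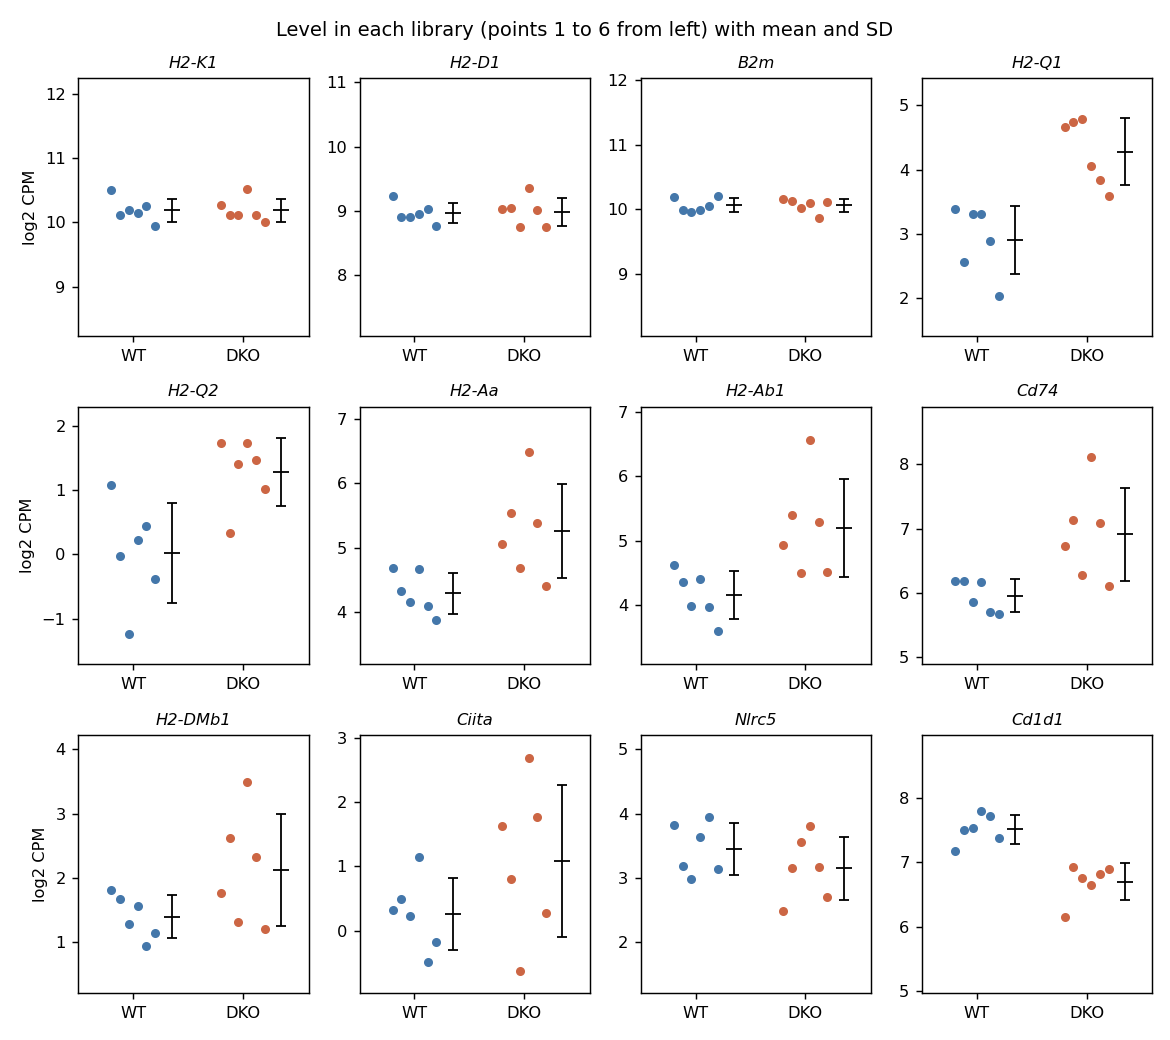
Log2 CPM of 12 genes in each library (points, replicates 1 to 6 from left to right) with the group mean and SD beside them, and a vertical axis of at least 4 log2 units in each panel. H2-K1, H2-D1 and B2m are level, H2-Q1 and Cd1d1 separate the groups, and DKO 4 is the highest point of H2-Aa, H2-Ab1, Cd74, H2-DMb1 and Ciita.

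Of the 5 class II genes, 5 were higher in DKO, 0 were called by limma, and 3 had a p below 0.05 without adjustment, by limma and by the exact permutation test alike. Without adjustment, 16.4% of all genes had such a p, as did 2 of the 24 class I genes, H2-Q1 and H2-Q2. The median log2 fold change was 0.94 for class II and 0.03 for class I, with 0.0041 over all genes. All 5 class II genes were highest in DKO 4, as were 11 of the 24 class I genes and 8.50% of all genes. In DKO, Cd74, H2-Aa and H2-DMb1 ranked the libraries in 1 order, DKO 4, DKO 2, DKO 5, DKO 1, DKO 3, DKO 6. H2-Ab1 differed in that DKO 6 came before DKO 3. Ciita had another order, DKO 4, DKO 5, DKO 1, DKO 2, DKO 6, DKO 3. The SD among DKO libraries was 2.05 to 2.88 times that among WT libraries for the 5 genes, against a median ratio of 1.09 over all genes. The median ratio of the 24 class I genes was 1.31. Some of them had ratios as high as class II, such as Psmb8 (2.73), Psmb9 (2.47), H2-T22 (2.39) and Psmb10 (2.34). Without DKO 4, the log2 fold changes were 0.77 for H2-Ab1, 0.72 for H2-Aa, 0.70 for Cd74, 0.51 for Ciita and 0.44 for H2-DMb1. Cd74 and H2-Aa passed without DKO 6 (limma adjusted p = 0.0404 and 0.0444). Without any other single library the limma adjusted p was 0.0826 to 0.179 for Cd74 and 0.0823 to 0.189 for H2-Aa.

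The routes were set against each other in 4 pairs of matched genes, as the difference in log2 CPM within each library. The tests were 2-sided exact permutation tests, adjusted over the 4 pairs alone. The pairs were chosen with earlier results of these data known. H2-K1 and B2m changed by -0.0018 and -0.01 on the log2 scale. A pair with either of them therefore largely repeats the change of its other gene and is no separate support. H2-Ab1 minus H2-K1 was -5.88, -5.75, -6.20, -5.76, -6.29 and -6.35 in WT and -5.33, -4.73, -5.61, -3.96, -4.83 and -5.49 in DKO. The groups did not overlap, and the difference between them was 1.04 (exact permutation p = 0.00216, adjusted p = 0.00433). Cd74 minus B2m moved by 0.95, with all 6 DKO libraries above the WT mean (exact permutation p = 0.00866, adjusted p = 0.0115). Ciita minus Nlrc5 moved by 1.14 with 5 of 6 DKO libraries above the WT mean, which did not pass (exact permutation p = 0.0823, adjusted p = 0.0823). That pair had an adjusted exact p of 0.00577 without DKO 3 and of 0.0736 to 0.16 without any other single library. The first pair and Cd74 minus B2m kept an adjusted exact p of up to 0.0130 and 0.0375 with any 1 library left out.

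**Figure D4:**
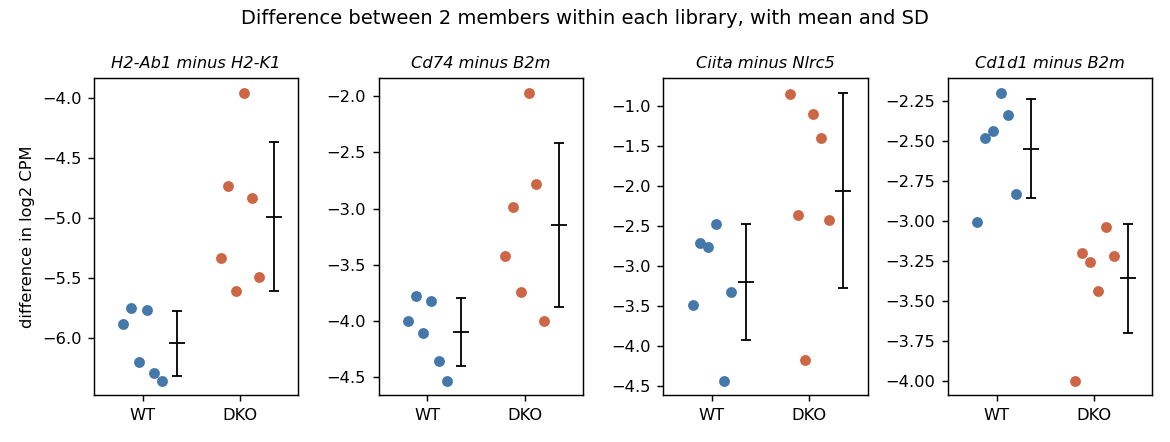
Difference in log2 CPM between 2 genes within each library (points, replicates 1 to 6 from left to right) with group mean and SD, and an axis of its own in each panel. H2-Ab1 minus H2-K1 and Cd1d1 minus B2m do not overlap between the groups, and they moved by 1.04 and -0.81.

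By library, the 5 class II genes averaged 0.81, 1.08, 0.02, 2.25, 1.15 and 0.09 log2 units above their WT means in DKO 1 to DKO 6. The 24 class I genes averaged 0.02, 0.03, 0.08, 0.53, 0.21 and -0.15 in the same libraries. In this average DKO 3 and DKO 6 stood near WT for class II, and DKO 4 was the highest for both classes. The class II genes were not alike in DKO 3. Cd74 was 6.28 log2 CPM there, above the highest WT library (6.19). H2-Aa (4.68) and H2-Ab1 (4.50) lay above their WT means of 4.29 and 4.16. H2-DMb1 (1.32) and Ciita (-0.62) lay below theirs, 1.40 and 0.26. The mean log2 fold change of class II exceeded that of class I by 0.78, and by 0.59 without DKO 4. These averages are descriptions and were not tested.

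**Figure D5:**
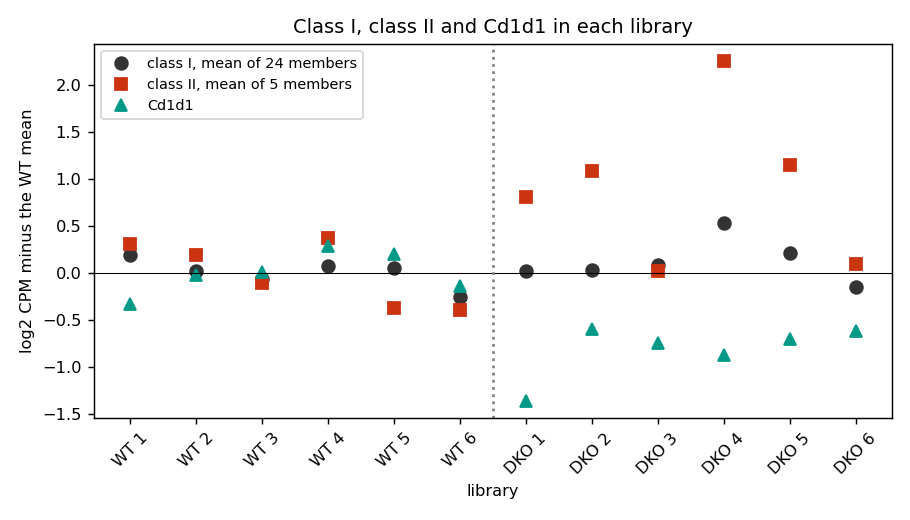
Mean log2 CPM of the class I genes, of the class II genes and of Cd1d1 in each library, relative to the WT mean of each gene. Class II reaches 2.25 in DKO 4 and 0.02 in DKO 3, class I stays between -0.26 and 0.53, and Cd1d1 lies between -1.36 and -0.60 in all 6 DKO libraries.

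Cd1d1 fell in DKO. It measured 7.18, 7.5, 7.53, 7.79, 7.71 and 7.38 log2 CPM in WT and 6.15, 6.92, 6.76, 6.65, 6.82 and 6.89 in DKO. Every DKO library lay below every WT library, DKO 1 by the most. The log2 fold change was -0.82 (standard error 0.14, 56.8% of WT, 95% confidence interval 46.5% to 69.4%, limma adjusted p = 0.00980, exact permutation p = 0.00216). The call held without each of the 12 libraries in turn, with an adjusted p of up to 0.0299. Cd1d1 minus B2m, its light chain, fell by 0.81 and did not overlap between the groups (exact permutation p = 0.00216, adjusted p = 0.00433). With B2m level, this difference repeats the fall of Cd1d1 and is no separate support. Of the 31-base words of Cd1d1, 24.2% also occur in its close copy Cd1d2, which was not analysed here.

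The other genes of each route came from lists that were chosen with earlier results of these data known. Their shares are set beside those of all genes for scale and test nothing. Of 13 further class I genes, 1 fell and 0 rose (7.69%, against 1.74% of all genes). By limma 4 had a p below 0.05 without adjustment (30.8%, against 16.4% of all genes), all lower in DKO. By the exact permutation test 4 did. The gene that fell was Psmb5, the constitutive proteasome subunit that Psmb8 replaces, with 73.5% of its WT level (log2 fold change -0.44, standard error 0.09, limma adjusted p = 0.0233), and its call ended without WT 2, WT 5, DKO 1 or DKO 3 (adjusted p of 0.0506 to 0.0644). Psmb6 and Psmb7, the counterparts of Psmb9 and Psmb10, had log2 fold changes of -0.26 and -0.25 (adjusted p = 0.105 and 0.0863), and Psme1, a subunit of the proteasome activator, one of -0.20 (adjusted p = 0.154). Listed for class II outside the members were 19 genes, of which 15 were measured. They include proteases that cut the invariant chain, RFX and NFY factors, Cd86, Cd40 and Icam1. Of the 15, 0 were called by limma and 14 were higher in DKO (median 0.26). By limma 5 had a p below 0.05 without adjustment (33.3%, against 16.4% of all genes), and 5 did by the exact permutation test. Rfxap, a subunit of the RFX factor that binds the X box, was closest (log2 fold change 0.46, standard error 0.13, adjusted p = 0.0863). Of 7 further genes listed for CD1 lipid loading and transport, 5 were measured, and 0 of these were called by limma. A p below 0.05 without adjustment was found for 2 by either test (40%, against 16.4% of all genes by limma). Mttp, the lipid transfer protein that also loads CD1d, was closest (log2 fold change -0.36, standard error 0.10, adjusted p = 0.0844). The other was Npc2, a lysosomal cholesterol carrier, which was higher in DKO (0.32, standard error 0.09, adjusted p = 0.103).

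Markers of cells that can carry class II are given beside these values. In whole liver more cells of a type and more RNA per cell cannot be told apart. Of 11 macrophage and Kupffer cell markers, 10 were higher in DKO, 10 had a p below 0.05 without adjustment by limma and 7 by the exact permutation test (16.4% of all genes by limma), and Lyz2, a lysozyme, rose (1.93-fold, limma adjusted p = 0.0357), a call that ended with any 1 library left out other than WT 1, DKO 3 or DKO 6. Their summed level was 344 to 633 CPM in WT (median 393) and 464 to 747 in DKO (median 667), with 671 in DKO 4. Of 3 monocyte markers, all highest in DKO 4, Ccr2, a chemokine receptor, rose 2.65-fold (adjusted p = 0.0244, and 0.0505 to 0.0604 without WT 2, WT 3, DKO 3 or DKO 4). Their sum was 6.60 to 9.41 CPM in WT and 8.80 to 17.5 in DKO. Of 5 measured dendritic cell markers 0 were called by limma, and 3 were higher. By limma and by the exact permutation test alike, 3 had a p below 0.05 without adjustment (60%, against 16.4% of all genes by limma). By limma these were Itgax and Flt3, both higher in DKO, and Siglech, which was lower. Itgax, the integrin CD11c, was closest (log2 fold change 1.80, standard error 0.45, adjusted p = 0.0595). The log2 fold changes of Flt3, Siglech and Clec9a were 0.69, -0.75 and -0.19. The dendritic cell sum was 10.9 to 18.6 CPM in WT and 16.9 to 22.8 in DKO, highest in DKO 4.

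The B cell markers Cd79a and Cd79b summed to 0.995 to 2.54 CPM in WT and 1.35 to 2.95 in DKO, with 1.71 in DKO 4. The 2 measured T and NK cell markers summed to 2.33 to 3.44 and 1.45 to 3.77. Of these 4 genes 0 were called by limma, 0 had a p below 0.05 without adjustment, and 1 did by the exact permutation test. Of 7 sinusoidal endothelial markers, 7 were higher in DKO and 0 passed limma's test (188 to 218 CPM in WT, 192 to 267 in DKO). A p below 0.05 without adjustment was found for 4 by either test (57.1%, against 16.4% of all genes by limma). Hepatocyte markers summed to 65500 to 79900 CPM in WT and 54300 to 84800 in DKO, and 5 of 8 were lower. By limma 3 had a p below 0.05 without adjustment (37.5%, against 16.4% of all genes), and 2 did by the exact permutation test. The limma 3 were Asgr1, Asgr2 and Hnf4a, all lower in DKO (log2 fold changes of -0.35, -0.17 and -0.24). Of these Asgr1, a subunit of the asialoglycoprotein receptor, fell to 78.4% of WT (limma adjusted p = 0.0452), a call that ended with any 1 library left out other than WT 1 or DKO 6. Among 6 stellate cell markers and 1 neutrophil marker 0 were called by limma. By limma 3 stellate cell markers had a p below 0.05 without adjustment (50%, against 16.4% of all genes). By the exact permutation test 3 did. Of 4 cholangiocyte markers Spp1, which macrophages also express, rose 1.83-fold (limma adjusted p = 0.0213, and 0.056 and 0.0505 without WT 6 or DKO 1). The part of these markers in the values of class II genes, H2-Q1 and Cd1d1 was not tested.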

How the data were processed

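Liver RNA of 12 libraries was compared, 6 WT and 6 DKO by the genotype label. The deposited values are log2 CPM that the authors had filtered and normalized, as the table's name states; the threshold of that filter and the count added before the logarithm were not stated. Per the submitters' processing notes, tools were kallisto 0.46.2, limma and edgeR and the genome was GRCm39, without the step each served. Of 12285 rows, 1 had no name and was left out. The depth of each library is unknown.

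All 12284 genes were fitted with limma 3.58.1 in R 4.3.3 (mean trend, no covariate, 2-sided), adjusted by Benjamini-Hochberg over all genes and called at an adjusted p below 0.05; the fit was tested on simulated data. Only called genes are said to have risen or fallen. The members, lists and pairs were chosen with earlier results of these data known, and H2-K2 was placed in class I after the table was read. Every member is named, and of each further list the called genes or the gene with the smallest p, others being named after their values were seen. Single values had exact permutation tests over the libraries. Alternatives were limma without trend, robust limma, array weights, log2(CPM + 1), a filter at a mean of 1 log2 CPM, median subtraction, quantile normalization, a replicate block and each library left out. Word counts and coding sequences came from GENCODE M21 (GRCm38), and promoters from RefSeq, where 3 motifs were shortened to cores after first matches were seen.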

Additional observations from a re-analysis of the deposited data

Results flagged for a closer look

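In 5 of 62 groups of 6 libraries, 1 library stood apart from the others of its group by more than Dixon's 95% critical value, where chance gives about 1 in 20 groups. Cd1d1 was 6.15 log2 CPM in DKO 1, against 6.65 in the next lowest DKO library. H2-Ke6 was 5.43 in DKO 3 (next 5.61) and H2-M3 0.99 in DKO 6 (next 1.62). H2-T22 was 6.82 in DKO 4, above the next highest value of 6.37. Psmb10 was 4.27 in WT 3 (next 4.58). Of these genes only Cd1d1 was called, and without DKO 1 its limma adjusted p was 0.00788.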

How the results depend on the processing

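The calls of Cd1d1 and H2-Q1 held under all 8 other settings of the fit to 12 libraries; H2-Q1 lost its call without 4 single libraries. The number of genes called was 214, and 138 without the mean trend, 109 with quantile normalization, 356 with array weights and 397 with the replicate block, and 92 to 373 with 1 library left out. Members called were 2, and 1 to 4 with 1 library left out; 4 without DKO 6 (Cd74 and H2-Aa in addition). With the replicate block 5 members were called (Cd1d1, H2-Q1, Cd74, H2-Aa and H2-Ab1). The labels used here do not say that libraries of the same number belong together. Their deviations correlated at -0.077 to 0.287, and 4 of 6 WT libraries correlated best with the DKO library of their own number. Whether the number pairs them is not known. Ciita minus Nlrc5 ranged from 0.89 to 1.56 with 1 library left out. The other 3 pairs kept their direction and an adjusted exact p below 0.05 under all alternatives run, and the mean of class II minus class I, which has no test, stayed between 0.59 and 0.95.

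Some members that were not called changed sign: under quantile normalization B2m (0.10), H2-K1 (0.12), H2-K2 (-0.01), H2-Q5 (-0.09) and H2-T23 (0.0049); with array weights H2-K1 (0.03), H2-Q10 (-0.0034), Psmb10 (0.01) and Tapbp (-0.03); and with medians subtracted H2-Q5 (-0.01) and H2-T22 (-0.02). With 1 library left out the ranges were -0.03 to 0.03 for B2m, -0.66 to 0.07 for H2-Bl (-0.40 with all libraries, 0.07 without DKO 2), -0.05 to 0.08 for H2-D1, -0.07 to 0.06 for H2-K1, -0.03 to 0.28 for H2-K2, -0.06 to 0.13 for H2-Q10, -0.09 to 0.11 for H2-Q5, -0.07 to 0.15 for H2-Q6, -0.09 to 0.04 for H2-T22, -0.18 to 0.01 for Psmb10, -0.04 to 0.24 for Psmb8, -0.02 to 0.39 for Psmb9, -0.06 to 0.24 for Tap1, -0.21 to 0.0047 for Tap2 and -0.11 to 0.15 for Tapbp. The cause was not tested.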

Other observations

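Genes that interferon-gamma induces include the guanylate-binding proteins, which act against intracellular microbes, and the chemokine Cxcl9, which draws T cells. Of 14 such genes, 11 were highest in DKO 4, where all class II genes were highest too, against 8.50% of all genes. Their summed level was 669 CPM in DKO 4 and 336 to 534 in the other 11 libraries. Cxcl9 was 6.12 log2 CPM in DKO 4 and 2.60 to 4.71 elsewhere, and Gbp2 4.24 in DKO 4 and 1.71 to 3.62 elsewhere. Between the groups 10 of the 14 were higher and 4 lower in DKO, and 0 were called by limma. By limma 2 had a p below 0.05 without adjustment (14.3%, against 16.4% of all genes), and 1 did by the exact permutation test. Gbp2 was closest (log2 fold change 0.81, standard error 0.33, limma adjusted p = 0.241). The other gene with such a p by limma, Iigp1, was lower in DKO (-0.34, standard error 0.14, adjusted p = 0.246) and highest in WT 4. Of 12 genes of the type I interferon response, 0 were highest in DKO 4 and 0 were called by limma. Of these 12, 6 were higher and 6 lower in DKO. A p below 0.05 without adjustment was found for 1 by either test (8.33%, against 16.4% of all genes by limma). It was Oas1a (log2 fold change 0.79, standard error 0.29, limma adjusted p = 0.178).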
